A study of Mus musculus with 4 samples.

Results

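The SWI/SNF (BAF) subunits described here are 10 genes of the mouse, found by their symbols among the 32285 genes that were counted: Smarca2, Smarca4, Smarcb1, Smarcc1, Smarcc2, Smarcd1, Smarcd2, Arid1a, Arid1b and Arid2. All 10 were present, and each was followed across 16 classes of bone marrow cells set by marker genes. The study gave C57BL/6 recipients a competitive bone marrow transplant and, 20 weeks later, sorted the donor-derived (CD45.2) hematopoietic stem and progenitor cells for droplet-based single-cell RNA sequencing of transcript 3' ends, with 20000 sorted cells loaded per sample. The donors were wild type (2 samples) or carried a heterozygous Srcap mutation (2 samples), Srcap being the ATPase of a different remodelling complex, the one that exchanges histone H2A for H2A.Z. The 4 libraries were held in a single matrix in which a barcode suffix, 1 to 4, marks the library, and no label ties a suffix to a genotype. The libraries were therefore not placed in groups, the genotypes were not compared, and each library's value, or the median and range of the 4, is given in place of a mean and a test. The sources used here do not say how many donors or recipients contributed to a library, or which allele the mutants carry.

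SWI/SNF complexes use the energy of ATP to slide or evict nucleosomes and so open chromatin at promoters and enhancers. A canonical BAF complex holds 1 of a pair of exchangeable ATPases, Smarca2 (BRM) or Smarca4 (BRG1). Its core is built from Smarcb1 and the scaffold proteins Smarcc1 and Smarcc2, with a Smarcd protein as adaptor. Arid1a and Arid1b are alternative subunits of the canonical BAF complex, while Arid2 belongs to the polybromo-containing PBAF form. In blood formation Smarca4 is known as a factor that early B and T cell development depends on, and Smarcd2 as a factor that neutrophil granule maturation depends on.

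The promoters of the ATPase pair are shown because pro-B and pre-B cells had the highest level of Smarca4 and the lowest median of Smarca2 among the classes. Their Smarca2 range overlapped those of other classes. Each is the RefSeq window of 250 bases before to 50 bases after the start site in GRCm38.p6, the assembly also called mm10, at chr19:26604910-26605209 on the plus strand for Smarca2 and at chr9:21615919-21616218 on the plus strand for Smarca4. Capitals mark the GC box GGGCGG, the element bound by SP1 and related factors, and the ETS element CCGGAAG, each on either strand.
Smarca2: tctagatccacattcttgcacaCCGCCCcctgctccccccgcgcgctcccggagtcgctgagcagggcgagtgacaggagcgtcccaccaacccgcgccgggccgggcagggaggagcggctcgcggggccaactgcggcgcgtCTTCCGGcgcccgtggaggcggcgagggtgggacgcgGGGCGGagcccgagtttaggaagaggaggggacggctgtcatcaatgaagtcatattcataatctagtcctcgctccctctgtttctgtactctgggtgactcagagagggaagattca
Smarca4: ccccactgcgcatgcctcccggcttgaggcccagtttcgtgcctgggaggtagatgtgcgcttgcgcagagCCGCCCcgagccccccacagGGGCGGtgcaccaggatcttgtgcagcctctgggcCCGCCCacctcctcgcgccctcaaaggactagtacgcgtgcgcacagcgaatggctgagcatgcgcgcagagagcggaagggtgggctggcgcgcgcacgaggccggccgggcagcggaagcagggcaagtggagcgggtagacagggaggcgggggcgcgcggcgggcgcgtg
The Smarca2 window held 2 GC boxes and 1 ETS element, at 106 bases before the start site. The Smarca4 window held 3 GC boxes and no ETS element. Of all 32851 promoters in the table, 35.7% held the GC box and 8.86% the ETS element. Of the 9 subunits with a promoter in the table, all held a GC box, and the ETS element was found in those of Smarca2 and Smarcc1. The windows of Smarcc1, Smarcd2 and Arid1b, and the second window of Arid1a, lie wholly inside the annotated genes rather than at their 5' ends. Both ATPase windows were rich in CpG, with 29 CpG dinucleotides and 65.7% GC for Smarca2 and 33 and 72.3% for Smarca4, where the median promoter had 7 and 52.7%. The GATA element AGATAA was found in 11.2% of all promoters, either strand counted, and in no member's. The E-box CAGCTG, found in 16.3%, was present only in the Smarcd1 window among the members, and the RUNX element TGTGGT, found in 16.8%, only in the Arid1b window. A match of letters is a description of the window and says nothing of binding.

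After filtering, 41122 cells were kept, 9026 to 12418 per library, with 111226947 to 142792456 UMIs (unique molecular identifiers, each a counted transcript) per library and medians of 9824 to 10226.5 UMIs per cell. A class was the set of cells showing a minimum number of that class's markers, and cells passing no gate, 61.6% of all, are called uncommitted progenitors. Of these 25314 cells, 5514 were 1 marker short of the stem cell gate, 5560 of the lymphoid-primed gate and 3823 of the early neutrophil gate. A cell can be short of more than 1 gate. Of the gated stem cells, 3138 showed exactly the minimum. The uncommitted class is thus a remainder that depends on marker detection. Of the 1875 early neutrophil progenitors, 1006 showed exactly the minimum. In Leiden clusters, made without the members and named by the same markers, 53.4% of them lay in clusters named uncommitted. Of the monocyte progenitors 69.4% lay in the late neutrophil cluster, and of the basophil or mast cells 72.7% in the erythroid one. In every other class the most frequent cluster name was that of the class. The gated stem cells numbered 4876, with Sult1a1 and Socs2 leading among genes outside the gates, and the pro-B and pre-B cells 1421, led by Lef1 and Vpreb2. Levels are UMIs of a gene summed over a library's cells of a class, per 1000000 UMIs of those cells (CPM), and fewer transcripts of a gene per cell cannot be told apart from more transcripts of other genes. Among the stromal markers Col3a1 had no UMI, Cxcl12 at most 0.100 CPM, and Col1a2, the highest, 0.315 to 0.833 CPM. The endothelial marker Cdh5 had at most 0.108 CPM and Kdr 0.721 to 2.15 CPM. Pecam1 and Emcn, which stem and progenitor cells also express, had 34.6 to 50.7 and 11.2 to 13.5 CPM. Srcap, the targeted gene, ranged from 52.7 to 81.5 CPM over the libraries. A 3' tag does not show whether a transcript carries the mutation.

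Outside plasma cells the ATPase genes varied most. Smarca2 was highest in hematopoietic stem cells, with a median of 174 CPM, and lowest in pro-B and pre-B cells with 29.2, a 5.96-fold span. Smarca4 was highest in pro-B and pre-B cells, with a median of 459 CPM, and lowest in plasma cells with 26.8, a 17.1-fold span. Leaving out plasma cells, its lowest class was the late neutrophil precursors with 69.6 CPM, and the span was 6.60-fold. The other 8 subunits spanned 3.21-fold to 13.4-fold over all classes, and 1.81-fold to 3.04-fold once plasma cells were left out. Most classes next to each other in these orders could not be separated: the libraries' ranges overlapped for 14 of 15 neighbouring pairs for Smarca2 and for 13 of 15 for Smarca4. The step from pro-B and pre-B cells to the next class was not among the overlapping ones for Smarca4.

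**Figure D1:**
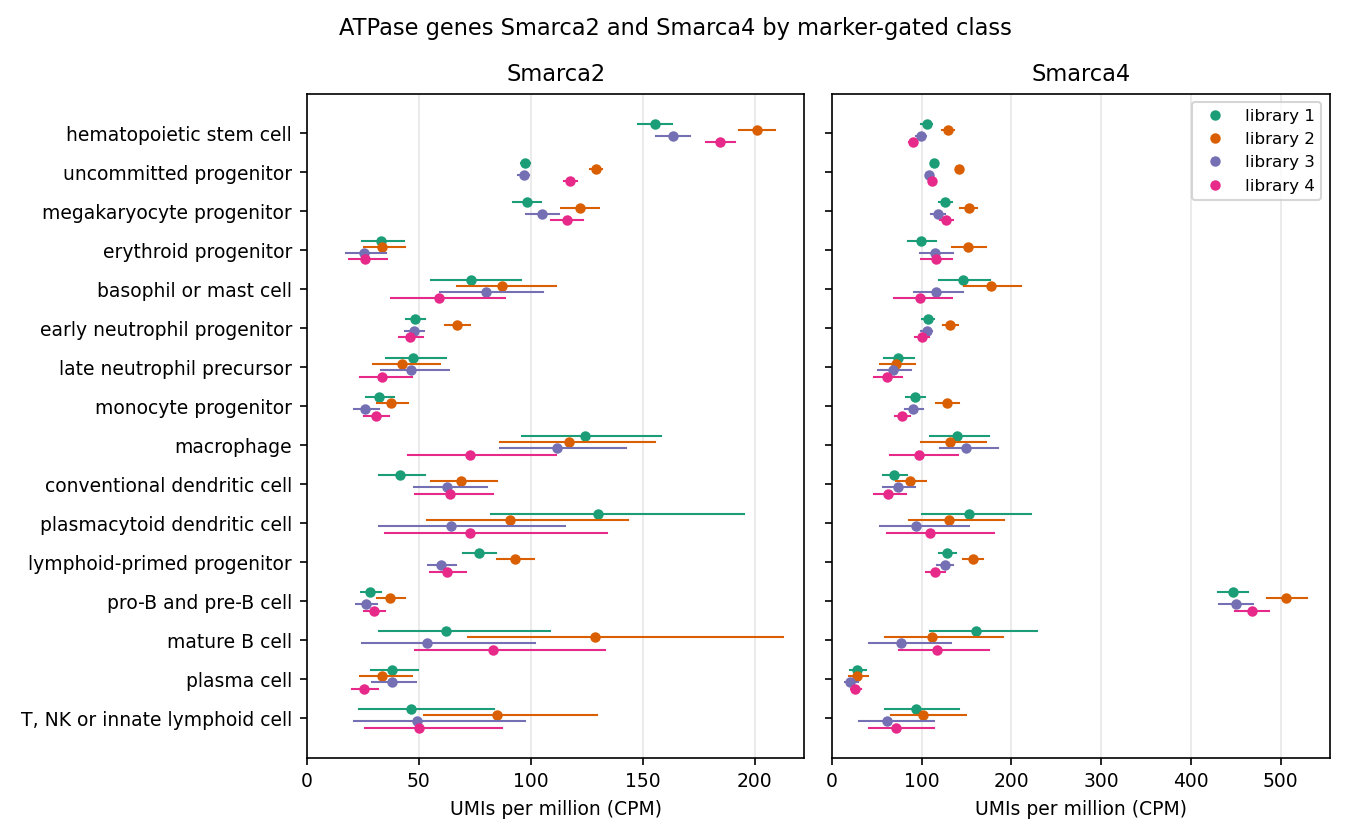
Levels of Smarca2 and Smarca4 in CPM (x axes) in 16 marker-gated classes (y axis); each point is a library and each line its exact 95% Poisson interval, which covers counting error only. Smarca2 lies between 155 and 201 CPM in stem cells, and Smarca4 between 447 and 506 CPM in pro-B and pre-B cells, apart from every other class.

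Smarca2, the ATPase linked to non-dividing cells in other tissues, had 155, 201, 163 and 184 CPM in the stem cells of libraries 1 to 4 and 97.6, 129, 96.8 and 118 CPM in the uncommitted progenitors. The stem cells were higher in every library, and the ranges of the classes did not overlap. The log2 ratio of the CPM, taken within each library after adding 1 CPM, had a median of 0.65 (0.63 to 0.75), a 1.57-fold difference. A gene was called where the ratio was 1.5-fold or more, with 1 sign, in 4 of 4 libraries, which is a limit on size and gives no p-value. Smarca2 was the only called member between stem cells and uncommitted progenitors, 1 of 10 higher and 0 of 10 lower, where 3.59% of 10000 genes were called higher and 0.830% lower. Of all those genes 4.62% had a larger median ratio than Smarca2. The remaining members lay close to 0, from -0.25 for the scaffold Smarcc1 to 0.17 for Arid1b, and the median over the 10 was -0.07 where that over all genes was 0.03.

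Stem cells and uncommitted progenitors also differed in cell cycle. Resting cells, those with fewer than 10 UMIs of S, G2 and M phase genes per 10000 UMIs, made up 64.6% of the stem cells and 38.2% of the uncommitted progenitors. Within resting cells only, the Smarca2 ratio between these classes was 0.51 (0.42 to 0.60), below 1.5-fold in the median, and the call ended. Within the uncommitted progenitors, Smarca2 had 130, 169, 124 and 153 CPM in resting cells and 87.5, 118, 85.4 and 100 CPM in cycling cells of libraries 1 to 4. Resting cells were higher in each library, with a median log2 ratio of 0.55 (0.51 to 0.60), and reached 1.5-fold in library 4 alone. Smarca4 went the other way, with 87.1, 111, 87.1 and 90.0 CPM in resting and 122, 150, 118 and 122 CPM in cycling cells. Its groups did not overlap, and the log2 ratio was -0.43 (-0.48 to -0.43).

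Smarcc1, a scaffold subunit, had the lowest ratio of the 10 between resting and cycling uncommitted progenitors. Its levels were 159, 190, 150 and 147 CPM in resting and 239, 286, 220 and 227 CPM in cycling cells, without overlap. The log2 ratio was -0.59 (-0.62 to -0.54). No member was called higher or lower in this contrast, where 5.26% of 9868 genes were called higher and 7.44% lower. Of all genes tested, 9.29% lay above Smarca2 and 8.68% below Smarcc1. Smarcd1, Smarcd2, Arid1a, Arid1b and Arid2 lay between -0.07 and 0.14.

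Smarca2 was also higher in the resting cells of every library in stem cells, lymphoid-primed progenitors, pro-B and pre-B cells and megakaryocyte progenitors. The lymphoid-primed difference was small in library 4, with 63.3 CPM in resting and 62.4 CPM in cycling cells. In early neutrophil progenitors library 4 alone went the opposite way, with 36.4 CPM in resting and 46.4 CPM in cycling cells. In stem cells the median of Smarca2 was 197 CPM (181 to 247) in resting and 141 CPM (132 to 176) in cycling cells. In pro-B and pre-B cells it was 70.7 CPM (60.0 to 97.6) in the 140 resting cells and 27.8 CPM (24.1 to 36.2) in the cycling ones. Smarca4 had 574 CPM (404 to 655) in resting pro-B and pre-B cells and 457 CPM (443 to 502) in cycling ones, so its ranges overlapped there, unlike in stem cells with 80.8 CPM (76.5 to 95.7) and 124 CPM (112 to 147). Whether the direction differs between classes was not tested.

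**Figure D2:**
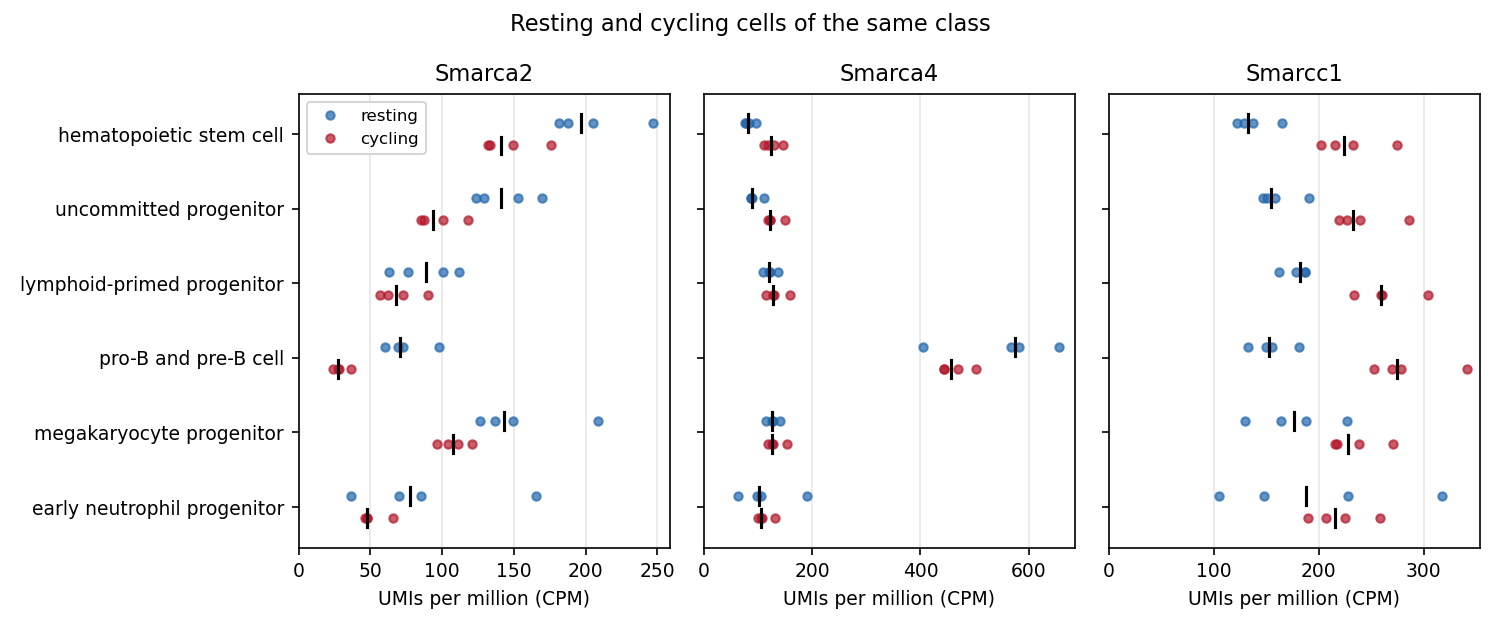
Levels in CPM (x axes) of Smarca2, Smarca4 and Smarcc1 in resting (blue) and cycling (red) cells of 6 classes (y axis); each point is a library and the black bar the median of the 4. In uncommitted progenitors Smarca2 has medians of 141 CPM in resting and 93.9 CPM in cycling cells, and Smarcc1 155 and 233 CPM; the resting early neutrophil progenitors are only 68 cells and scatter widely.

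Pro-B and pre-B cells, the B lineage stages that rearrange the immunoglobulin genes, had the highest Smarca4 level of the classes. Their Smarca2 range overlapped those of erythroid and monocyte progenitors, plasma cells and late neutrophil precursors. Smarca4 had 447, 506, 450 and 468 CPM there and 128, 157, 126 and 115 CPM in lymphoid-primed progenitors, the earlier class of lymphoid progenitors. Every pro-B library lay far above every lymphoid-primed library. Smarca2 had 28.4, 37.2, 26.6 and 30 CPM against 76.9, 92.9, 60.1 and 62.5 CPM, again without overlap and in the opposite direction. The log2 ratios were 1.81 (1.68 to 2.02), a 3.5-fold difference, for Smarca4 and -1.22 (-1.4 to -1.04) for Smarca2. Smarcb1, a core subunit, had 117, 108, 116 and 120 CPM against 63.8, 68.2, 67.3 and 64.6 CPM, a log2 ratio of 0.82 (0.66 to 0.88).

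These 3 were the members called in this contrast, which was chosen after the levels had been seen: 2 of 10 were higher and 1 of 10 lower, where 5.98% of 9308 genes were called higher and 12.6% lower. Smarcd2, at 0.52 (0.41 to 0.60), and Arid1a, at -0.44 (-0.55 to -0.34), were not called. Pro-B and pre-B cells were mostly cycling, with 9.85% resting against 24.2% of lymphoid-primed progenitors. Among resting cells only, Smarca4 was still called, with a log2 ratio of 2.24 (1.88 to 2.26), whereas Smarca2 was not, at -0.38 (-0.74 to 0.62) from 50 UMIs in pro-B and pre-B cells. Smarcb1 was at 0.56 (-0.26 to 1.09) among resting cells. It was also no longer called, at a median of 0.69, when the most abundant genes were left out of the CPM sum.

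Pro-B and pre-B cells also had the highest share of cells with at least 1 Smarca4 UMI among the 6 classes counted. With every cell thinned to 5000 UMIs, and shallower cells left out, a median of 84.3% (81.0 to 87.9) of pro-B and pre-B cells had a Smarca4 UMI, against 43.3% (39.6 to 51.4) of lymphoid-primed progenitors, 36.2% (34.5 to 42.7) of stem cells and 12.1% (9.52 to 15.1) of plasma cells. Without thinning the medians were 94.4%, 73.4%, 56.5% and 34.8%, at median depths of 13324, 12155, 8736 and 17230 UMIs. For Smarca2 the thinned medians were 56.7% (52.5 to 60.4) in stem cells and 13.9% (12.6 to 15.1) in pro-B and pre-B cells, and the unthinned ones 77.5% and 29.5%. Early neutrophil progenitors had a thinned Smarca4 median of 41.0% and uncommitted progenitors 39.8%, against the order of their CPM, and no order was read from those shares. No class is known to lack these genes, so no share could be set against a class with background UMIs alone.

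Mature B cells, which follow the pro-B and pre-B stages, were few and shallow, 162 cells with a median of 2263.5 UMIs. Smarca4 had 161, 112, 77.4 and 117 CPM there, from 13 to 31 UMIs per library, all below the pro-B and pre-B libraries. Smarca2 had 62.3, 129, 53.6 and 83.2 CPM, from 9 to 17 UMIs, all above them. Relative to pro-B and pre-B cells the log2 ratios were -2.08 (-2.52 to -1.47) for Smarca4 and 1.27 (0.98 to 1.76) for Smarca2. Smarcb1 at -0.69, Smarcc1 at -1.33 and Smarcd2 at -1.06 were also called lower. That made 1 of 10 higher and 4 of 10 lower, where 7.79% of 9318 genes were called higher and 7.38% lower. Resting cells made up 74.7% of the mature B cells. Among resting cells alone Smarca4 remained lower, at -2.81 (-4.41 to -2.44), from only 25 mature B UMIs, 2 to 9 per library. Smarca2 was at -0.10 (-0.21 to 0.95) there, a reversed median that rests on 31 and 50 UMIs.

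Plasma cells, the antibody-secreting end of the lineage, had the lowest level of 9 of the 10 members, all except Smarca2. Smarca4 had 27.7, 28.2, 20.5 and 26.0 CPM and Smarcd2 11.8, 9.40, 6.84 and 6.02 CPM, below all libraries of the mature B cells for both. Against mature B cells 8 of 10 members were called lower and 0 of 10 higher in this contrast, which was likewise chosen after the levels had been seen. Immunoglobulin transcripts took 52.4% to 57.5% of the plasma cells' UMIs, and 44.1% of 8851 genes were called lower and 2.79% higher, with a median log2 ratio of -1.33 over all genes and -1.96 over the members. With the most abundant genes left out of the sum, 5 of 10 members were called lower, and the share of all genes called under that setting is not given here. Per 1000 cells, plasma cells had 445 Smarca4 UMIs and mature B cells 500, and Smarca2 had 560 and 327, in cells of very different depth.

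**Figure D3:**
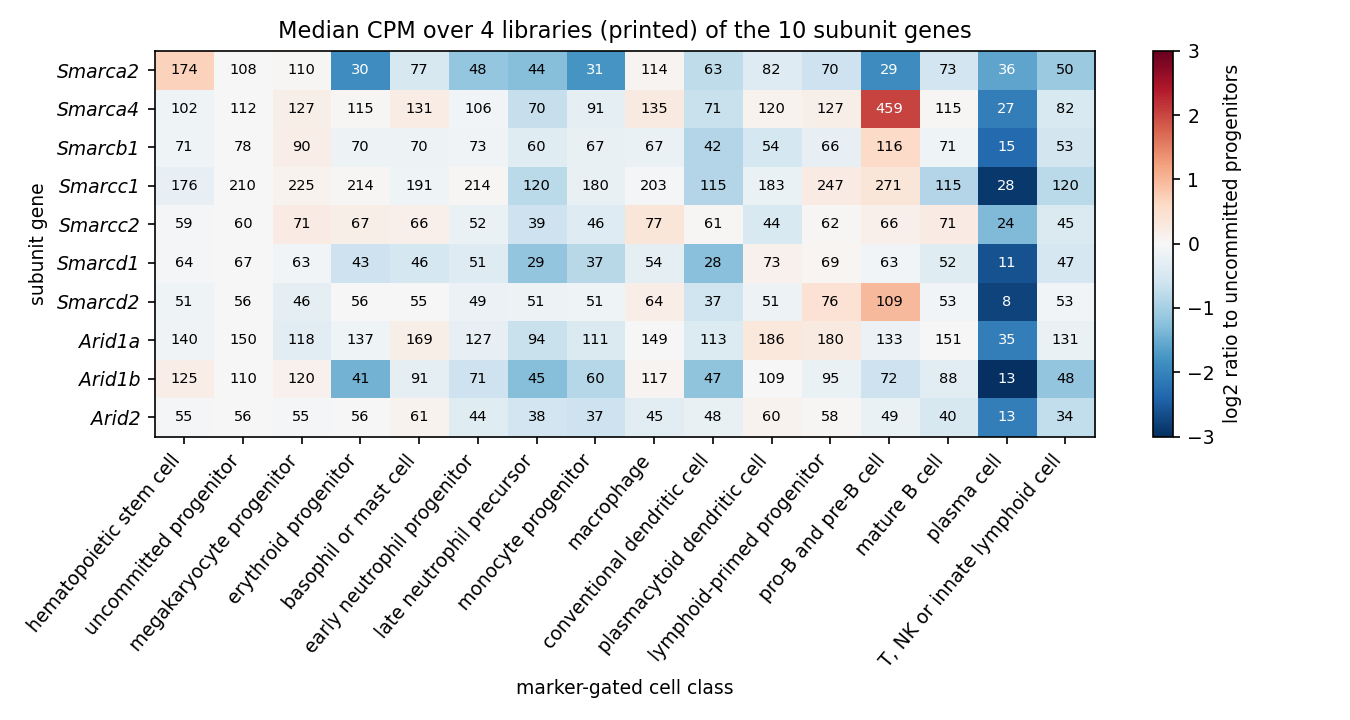
Median CPM over the 4 libraries (printed numbers) of the 10 subunit genes (rows) in 16 classes (columns); colour gives the log2 ratio of that median to the same gene's median in uncommitted progenitors. Smarca4 in pro-B and pre-B cells is the strongest red field at 459 CPM, Smarca2 ranges from 174 CPM in stem cells to 29.2 CPM in pro-B and pre-B cells, and plasma cells are blue in every row.

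The core and scaffold subunits moved less. Smarcb1 was highest in pro-B and pre-B cells, at a median of 116 CPM, and Smarcc1 likewise at 271 CPM. Smarcc2, the second scaffold, was the flattest of the core, with 38.7 to 76.9 CPM outside plasma cells and all 15 neighbouring classes overlapping. Summed over the 10 members, the level was 1365 CPM (1295 to 1543) in pro-B and pre-B cells and 1035 CPM (999 to 1204) in lymphoid-primed progenitors, without overlap. Without Smarca4 the sums of the other 9 were 908 CPM (845 to 1036) and 913 CPM (873 to 1047), ranges that overlapped. In stem cells the sum was 1002 CPM (961 to 1214) and in uncommitted progenitors 1005 CPM (958 to 1191), so the ranges there nearly coincided while Smarca2 differed.

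The adaptor pair Smarcd1 and Smarcd2 was followed through neutrophil development. Smarcd2 had 50.6, 56.9, 47.8 and 47.5 CPM in early neutrophil progenitors, which make primary granule proteins such as Elane and Mpo, and 50.2, 57.5, 51.2 and 45.1 CPM in late neutrophil precursors, which make Camp and Ltf. These ranges overlapped, and the log2 ratio was 0.00 (-0.07 to 0.10). Smarcd1 had 58.5, 56.5, 45.4 and 44.1 CPM in the early and 29.8, 33.8, 22.6 and 29.1 CPM in the late cells, without overlap. Its log2 ratio of -0.84 (-0.98 to -0.58) missed the call in library 4 by a small margin. Smarcc1, at -0.81 (-0.85 to -0.76), and Arid1b, at -0.70 (-0.79 to -0.59), were called lower in the late cells. No member was higher, where 3.60% of 9021 genes were called lower and 2.69% higher. The late cells were only 206, and the number of members called lower ranged from 0 with a stricter gate to 4 without the cells whose barcode occurs in more than 1 library. The shares of all genes called under those settings are not given here.

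Of the ARID subunits, Arid1b differed between the megakaryocyte and erythroid branches, as did Smarca2. Arid1b had 113, 136, 123 and 117 CPM in megakaryocyte progenitors, the platelet-forming branch, and 44.3, 46.7, 38.1 and 31.4 CPM in erythroid progenitors. Smarca2 had 98.2, 122, 105 and 116 CPM against 33.1, 33.7, 25.4 and 26.2 CPM. For both genes every megakaryocyte library lay above every erythroid library. The log2 ratios of erythroid to megakaryocyte progenitors were -1.59 (-1.86 to -1.33) for Arid1b and -1.91 (-2.11 to -1.54) for Smarca2, 3.02-fold and 3.77-fold lower. Arid1a, the paralog of Arid1b, was at 0.18 (0.06 to 0.26), and Smarca4 at -0.09 (-0.34 to 0.00). No member was called higher and 2 of 10 were lower in this contrast, which was also chosen after the levels had been seen, where 12.3% of 9228 genes were called lower and 4.52% higher. Among resting cells both genes were again called lower, where 8.35% of 9333 genes were. These calls rest on only 36 resting erythroid progenitors with 11 Smarca2 and 25 Arid1b UMIs. Smarca4 was at a median of -1.52 there, from 18 erythroid UMIs, with all 4 libraries below 0 and no call. Arid2, the PBAF subunit, was at -0.08 (-0.10 to 0.14) here and spanned medians of 33.6 to 60.8 CPM outside plasma cells. Over all cells, Smarcc2, Smarcd1, Arid1a and Arid2 were called in none of the 8 contrasts without plasma cells. The share of all genes called in none of them is not given here, so this is not read as a trait of these genes.

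Against early neutrophil progenitors the same genes were higher in megakaryocyte progenitors. Smarca2 had 48.3, 67.1, 48.1 and 46.3 CPM in the early neutrophil progenitors, a log2 ratio of 1.06 (0.85 to 1.31). Arid1b had 67.6, 82.8, 71.2 and 70.4 CPM there, a ratio of 0.73 (0.71 to 0.78). All megakaryocyte libraries lay above all early neutrophil libraries for both. They were the 2 of 10 members called higher, with 0 lower, where 7.81% of 9451 genes were called higher and 5.53% lower. Among resting cells, with only 68 early neutrophil progenitors, both calls ended, at 0.76 (-0.14 to 2.49) for Smarca2 and 0.43 (-0.02 to 0.69) for Arid1b. Smarcd1 was called there, at 1.05 (0.71 to 1.39), where 3.71% of 9602 genes were called higher. That call rests on only 20 early neutrophil UMIs, 2 to 9 per library. In lymphoid-primed progenitors, set against the same early neutrophil progenitors, 0 of 10 members were called, where 7.20% of 9431 genes were called higher and 4.60% lower. There 9 of the 10 medians were above 0, from 0.15 for Smarcc1 to 0.58 for Smarcd2, and Smarcb1 was at -0.13. With a gate that asks for 1 more marker, 4 members were called higher, and the share of all genes called with that gate is not given here. The 3 contrasts with early neutrophil progenitors share those cells, so they are not independent of each other.

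As a share of each paralog pair, the same data gave an order of classes that does not depend on the CPM sum. A share compares UMIs of separate genes, which may be primed with unequal efficiency, so it is compared only between classes. Smarca2 made up 61.6% (59.5 to 67.1) of the ATPase pair's UMIs in stem cells, 47.4% (46.2 to 51.4) in uncommitted progenitors, 45.7% (43.7 to 47.7) in megakaryocyte progenitors and 36.2% (32.3 to 37.4) in lymphoid-primed progenitors. It was lower still in early neutrophil progenitors, at 31.5% (31.1 to 33.7), in monocyte progenitors, at 24.3% (22.4 to 28.3), and in erythroid progenitors, at 18.3% (18.1 to 25). Pro-B and pre-B cells had 6.00% (5.58 to 6.84), from 599 Smarca2 and 9244 Smarca4 UMIs. Mature B cells, at 41.2% (27.9 to 53.6), and plasma cells, at 56.2% (49.7 to 64.9), lay well above them.

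The Smarca2 share also followed the cell cycle split. It was 60.1% (58.7 to 62.9) in resting and 43.0% (41.7 to 45.2) in cycling uncommitted progenitors, without overlap. Among the stem cells it was 59.5%, 60.9%, 62.2% and 67.1% in libraries 1 to 4, where 60.7%, 49.6%, 69.5% and 74.1% of the stem cells were resting. Library 4 was highest in both, while library 2 had the fewest resting cells and not the lowest share. The part of resting cells in this difference between libraries was not tested. In resting cells alone the medians were 71.2% for stem cells and 10.4% for pro-B and pre-B cells.

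Within the Smarcd pair, Smarcd1 held 55.2% (54.2 to 58.8) in stem cells, 49.3% (48.1 to 53.6) in early neutrophil progenitors and 37.1% (30.6 to 39.2) in late neutrophil precursors. Pro-B and pre-B cells had a share as low, 37.0% (35.3 to 40.1), with Smarcd2 at its highest level of any class, 109 CPM. Within the ARID pair, Arid1a held 50.4% (48.9 to 52.7) in megakaryocyte progenitors, 53.9% (50.8 to 55.3) in stem cells, 59.1% (56.8 to 59.8) in uncommitted progenitors and 77.3% (75.3 to 81.5) in erythroid progenitors. The erythroid range lay above those of these 3 classes. For both pairs 14 of 15 neighbouring classes in the order overlapped.

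**Figure D4:**
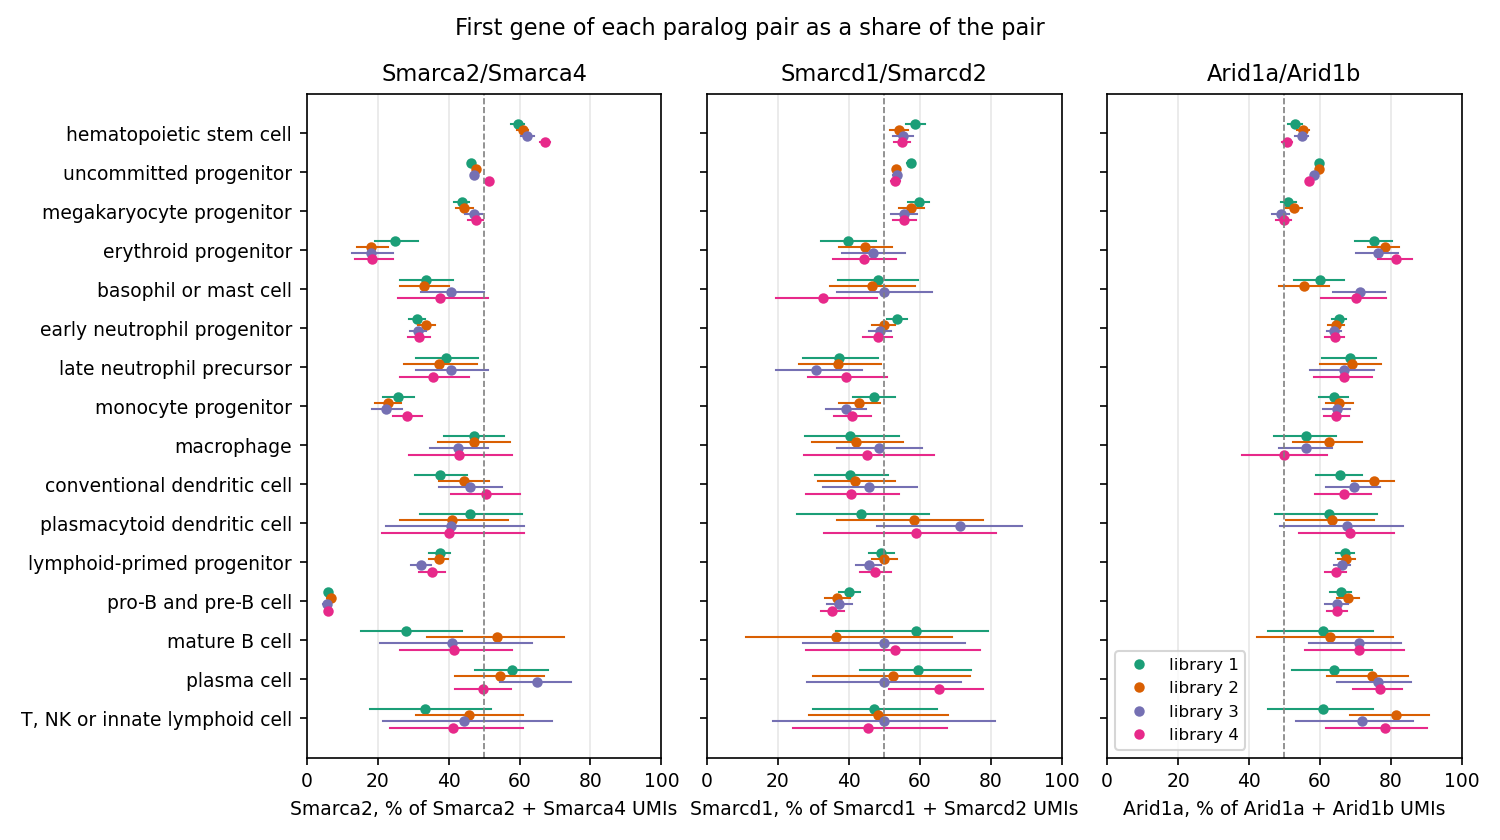
Share (x axes, percent) of the first gene in the UMIs of each paralog pair, by class (y axis); each point is a library, each line its exact 95% Clopper-Pearson interval for counting error, and the dashed line marks equal UMIs. Smarca2 ranges from a median of 61.6% in stem cells to 6.00% in pro-B and pre-B cells, and Arid1a from 50.4% in megakaryocyte to 77.3% in erythroid progenitors.

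Of 20 further SWI/SNF genes in a fixed list, 14 or 15 passed the level filter of 5 CPM in each contrast. None was called between stem cells and uncommitted progenitors, between resting and cycling cells, or between late and early neutrophil cells. The shares of all genes called in those contrasts are given above. In pro-B and pre-B cells Bcl7a, an accessory subunit, had 105, 149, 114 and 123 CPM against 37.2, 45.4, 33.2 and 40.4 CPM in lymphoid-primed progenitors, a log2 ratio of 1.64 (1.47 to 1.75). Its pro-B values lay above all the lymphoid-primed ones, and it was the only one of the 15 called higher there, where 5.98% of all genes were. Bicral, a subunit of the non-canonical complex, was lower, at -0.80 (-0.95 to -0.69), where 12.6% of all genes were called lower. Bcl11b, a transcription factor of T cell commitment that copurifies with the complex, had 0 UMIs in pro-B and pre-B cells and 244 in lymphoid-primed progenitors.

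Bcl11a, its B-lymphoid and stem cell relative, had 225, 313, 217 and 231 CPM in lymphoid-primed progenitors and 95.7, 118, 95.5 and 92.2 CPM in early neutrophil progenitors. The lymphoid-primed values were higher in every library, a log2 ratio of 1.27 (1.18 to 1.4). Bicra at 0.69 and Bicral at 0.72 were also called higher there, and with Bcl11b they made 4 of 15, where 7.20% of all genes were called higher. Bcl11b passed the level filter in these contrasts only through lymphoid-primed progenitors, so its calls were fixed by the filter. Megakaryocyte progenitors exceeded early neutrophil progenitors in Bcl11a, at 0.80 (0.70 to 1.07), and in Dpf2, a histone-reading subunit, at 0.97 (0.91 to 1.08). These were 2 of 14, where 7.81% of all genes were called higher. Erythroid progenitors exceeded megakaryocyte progenitors in Phf10, a PBAF subunit, at 0.99 (0.88 to 1.18), where 4.52% of all genes were called higher. The other of the 2 called among 15, Dpf3, with 47 and 90 UMIs, is named here after its values were seen; it passed the level filter only through the erythroid side, so its call was fixed by the filter. Bcl7a was lower in mature B cells than in pro-B and pre-B cells, at -1.70 (-2.21 to -0.87), where 7.38% of all genes were called lower. In plasma cells 8 of 14 were lower than in mature B cells, where 44.1% of all genes were. Among the 8 was Bcl11a at -5.39 (-6.63 to -4.83).

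Genes with the pattern most like that of Smarca2 were Mecom, Uba7, Tnip3, Meis1 and Myct1, with Pearson r from 0.86 to 0.88 of log2(CPM + 1) over 64 pairs of class and library, among 7670 genes. Mecom is a marker of the stem cell gate, so its level there was set by the gate. For Smarcd2, genes among the most alike were Sfpq, Anp32a, Ptbp1 and Hnrnpa0, from 0.89 to 0.90. For Smarca4, added after its levels had been seen, they were Ctcf, Parp1, Rad21, Hist1h1c and Cbx1, from 0.86 to 0.89. Among the members themselves r was 0.13 between Smarca2 and Smarca4 and -0.08 over the 60 points without plasma cells, while Smarca2 and Arid1b had 0.69 and 0.74. Other pairs were as high, such as Smarca4 and Smarcd2 with 0.84 and 0.73. Plasma cells raised some values, as for Smarcd2 and Arid1b with 0.70 and 0.23, and they are included in the likeness values above. The points share libraries and the CPM sum of each class, so these values are descriptions only.

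Library 2 stood apart in the members' levels, as in those of most genes. Over all kept cells Smarca2 had 90.3, 121, 89.2 and 108 CPM in libraries 1 to 4, Smarca4 127, 153, 122 and 122 CPM, and Smarcc1 216, 259, 196 and 192 CPM. In all, 8 of the 10 members were highest in library 2, and Smarcb1 and Smarcd1 were highest in library 1. Of all 9826 genes at or above the filter, 66.0% were highest in library 2, and the excess grew with the length of the longest annotated transcript. The median log2 ratio of library 2 to the median of the other libraries was -0.06 for genes under 1500 bases and 0.37 for genes of 7500 bases or more. Smarca2, at 0.41, lay above the median of 0.29 for genes of like length. Smarcb1, at 0.04 with an annotated length of 7441 bases, lay below the like-length median of 0.32 and below its middle 50% of genes, 0.24 to 0.39. Arid1b, at 0.24, and Arid2, at 0.23, also lay below the middle 50% of their like-length genes. Smarca2, Smarcc1, at 0.40, and Smarcc2, at 0.36, lay above theirs, and the remaining members lay within. Ratios between classes were taken within libraries, and the part of transcript length in the libraries' differences beyond these values was not tested.

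**Figure D5:**
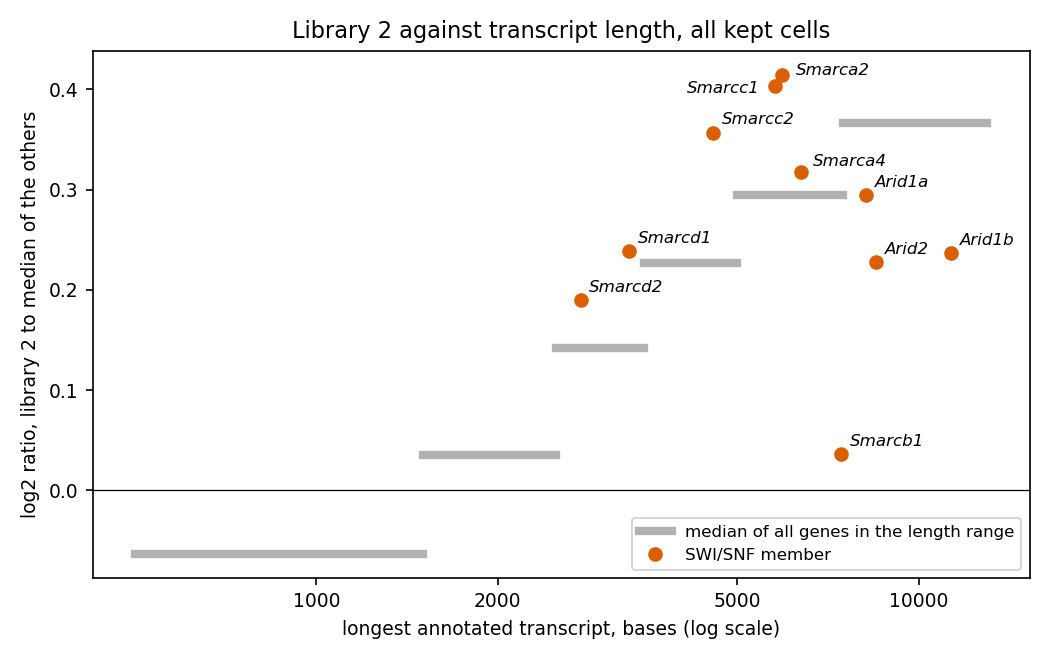
Log2 ratio of each member's level in library 2 to the median of the other libraries (y axis) against the length of its longest annotated transcript in bases (x axis, log scale); grey bars are medians of all genes in 6 length ranges, of which the first and last are open-ended. Smarca2 lies highest of the 10 at 0.41 and Smarcb1 lowest at 0.04.

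Smarca2 is annotated at chr19:26605050-26778322 and Smarca4 at chr9:21616169-21704230, both on the plus strand of mm10, in GENCODE M21. Counted genes on the opposite strand overlap Smarca2 (Gm20616 and 4931403E22Rik), Smarcc1 (Dhx30) and Smarcd1 (Gm17349 and Gm34939), and none overlaps another member. A 3' count does not separate the transcript forms of a gene, such as the short form of Smarca2 that starts within the gene.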

How the data were processed

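The deposited matrix holds UMI counts per gene and barcode, aggregated over 4 libraries with Cell Ranger 6.1.2 per the file header and aligned to mm10 per the submitters' processing notes; whether depth was equalised in the aggregation is not given in the sources used here. A minimum of 500 genes and a mitochondrial limit of 10% left 41122 of 44151 barcodes. Of these, 357 (0.868%) share a 16-base barcode with a cell of another library and were kept. Doublet calls by Scrublet in Scanpy 1.11.5 marked 1 cell in all and were not used, so doublets were kept; 1234 cells that passed more than 1 gate and 1 eosinophil were left out of the classes. The number of markers per gate was set from how many were detected per cell, without the members' values. In 4201 cells the cell cycle UMIs lay at 8 to 12 per 10000, near the limit of 10.

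Counts were summed per library and class and scaled to CPM. Genes averaging 5 CPM or more over both sides entered a contrast, the log2 ratio had a pseudocount of 1 CPM, and a call needed 1.5-fold in 4 of 4 libraries. Ratios were taken within each library, and no p-value was computed from the 4 ratios; the design fixed a limit on size instead. Named beyond the members were listed subunits that were called and the 5 genes most like a member, of which 1 is not reported here. The call rule was tested on simulated counts. The members, lists and contrasts were chosen with earlier results of these data known. Poisson and Clopper-Pearson intervals are exact at 95%. Gene positions are from GENCODE M21, which held 32158 of the 32285 gene IDs, and promoters from RefSeq, GRCm38.p6. Python 3.11.15, NumPy 2.4.6 and leidenalg 0.10.2 were used. Alternatives covered gates, Leiden clusters, cell filters, doublet scores, scaling, pseudocount, filter, resting cells and each library left out.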

Additional observations from a re-analysis of the deposited data

How the results depend on the processing

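Of 1814 values recomputed under alternative settings, 1619 kept their direction and call or moved little, 194 moved and 1 reversed. The reversed value, the 1 called ratio that changed sign, was the log2 ratio of Smarca2 between mature B and pro-B and pre-B cells, at -0.10 in resting cells; ratios that were not called could change sign too, as Smarcc1 did between pro-B and pre-B cells and lymphoid-primed progenitors, from 0.14 to -0.19 in resting cells. Restricting to resting cells on both sides left fewer cells. This restriction gave 0 members higher in stem cells, where 3.10% of all genes were called higher. Against early neutrophil progenitors it gave 1 higher in lymphoid-primed progenitors (3.80% of genes) and 1 in megakaryocyte progenitors (3.71%). That member was Smarcd1 in both, at 1.10 and 1.05, each against the same 20 early neutrophil UMIs. Mature B cells had 0 higher (3.02% of genes) and 1 lower (6.14%). Pro-B and pre-B cells had 1 higher (3.32%) and 0 lower (2.54%). Plasma cells had 5 lower, where 32.9% of 8513 genes were. For the settings that follow, shares over all genes are not given, so those counts are not read as results about the members. A gate with 1 more marker gave 4 members higher in lymphoid-primed progenitors, 0 lower in late neutrophil precursors, and 0 higher and 2 lower in mature B cells. Leaving the most abundant genes out of the sum gave 1 higher in resting cells, 1 lower in late neutrophil precursors, 2 lower in mature B cells, 1 higher in pro-B and pre-B cells and 5 lower in plasma cells. For late neutrophil precursors the count lower was 1 with a mitochondrial limit of 5%, 1 with a pseudocount of 5 CPM and 4 without the barcodes found in more than 1 library, an alternative chosen after seeing the data, as were all settings of the 3 added contrasts. Without the highest 8% of doublet scores 2 members were lower in mature B cells. Leaving out each library in turn gave 0 to 1 members lower in resting uncommitted progenitors, the 1 being without library 3. Leiden clusters gave 1 member lower in stem cells and Smarca2 shares of 69.7% in stem cells and 44.7% in uncommitted progenitors; no cluster was named early neutrophil progenitor, so the 3 contrasts with that class have no such value. In resting cells only, the Smarca2 share was 71.2% in stem cells, 60.1% in uncommitted, 41.9% in lymphoid-primed and 52.3% in megakaryocyte progenitors, 10.4% in pro-B and pre-B cells, 43.2% in early and 69.0% in late neutrophil cells. The Smarcd1 share there was 43.7% in early and 10% in late neutrophil cells, the latter from 16 cells, and the Arid1a share 59.9% in pro-B and pre-B cells, 60.2% in early and 90% in late neutrophil cells. With the stricter gate the Arid1a share was 78.7% in late neutrophil precursors. Apart from those constructions the cause of each change was not tested. No paired analysis was possible because the barcode suffixes carry no replicate number or sample label that would pair the genotypes; class ratios were taken within each library. Mature B cells, with 4 to 37 UMIs of a member per library, and late neutrophil precursors, with 19 to 137, limit what their contrasts can show.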
